A study of Mus musculus with 8 samples.

Results

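The genes that present peptides on class II molecules of the major histocompatibility complex (MHC) were followed in mouse lymph node (LN) with and without the histamine H3 receptor. The list holds 9 genes: H2-Aa, H2-Ab1, H2-Eb1, H2-DMa, H2-Oa, H2-Ob, Cd74, Ciita and Ctss. A gene was represented by the probe set annotated to it alone that had the highest mean over the 8 arrays. By this rule 8 of the 9 genes were measured, on 12 probe sets of the 22626 tested, which cover 12393 genes. H2-Ob has no probe set of its own and is not among the 8. LN RNA came from pools of at least 3 C57BL/6 mice, females and males aged 8 weeks, with 1 array per pool. H3RKO mice carry a targeted deletion of Hrh3 (B6.129P2-Hrh3tm1Twl) and WT mice do not. The groups were H3RKO CFA+PTX, WT CFA+PTX, H3RKO CFA and WT CFA with 1 array each, all taken 24 h after injection, and H3RKO untreated and WT untreated with 2 arrays each. CFA is complete Freund's adjuvant, killed mycobacteria in oil, and PTX is pertussis toxin. A pool averages its mice, which bounds what 1 array says about any single animal, and in whole LN fewer cells of a type and less RNA per cell cannot be told apart.

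Class II molecules are pairs of an alpha and a beta chain that carry peptides of ingested proteins to CD4 T cells. The new pair is held by the invariant chain, encoded by Cd74, until proteases in endosomes trim that chain to a short remnant. H2-DM then exchanges the remnant for peptide and H2-O restrains H2-DM. B cells, dendritic cells and macrophages carry this machinery, and B cells are the most numerous of them in LN. The chain genes of this machinery are switched on together by Ciita. This coactivator docks on the factors RFX, CREB and NF-Y, which are bound at the X and Y boxes of the promoters. C57BL/6 mice have the H2-b haplotype, in which H2-Ea is not transcribed, so that H2-Eb1 is made without its usual alpha chain.

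Parts of the promoters are printed because the chain genes answer to 1 coactivator. Promoter windows of RefSeq (GRCm38.p6, 250 bases before to 50 after a gene's start) were at hand for 6 of the 9 genes. Capitals mark GNAAC, the core of the X box, and ATTGG, the reversed CCAAT of the Y box. The search was written after these windows had been read.
H2-Aa (chr17:34287847-34287929, minus strand): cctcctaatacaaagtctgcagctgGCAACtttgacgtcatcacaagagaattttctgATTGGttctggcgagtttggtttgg
H2-Eb1 (chr17:34305751-34305832, plus strand): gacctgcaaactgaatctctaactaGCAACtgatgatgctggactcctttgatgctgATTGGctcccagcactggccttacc
H2-Oa (chr17:34092278-34092360, plus strand): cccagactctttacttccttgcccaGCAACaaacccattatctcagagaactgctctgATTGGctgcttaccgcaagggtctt
The capitals start 33 bases apart in H2-Aa, 32 in H2-Eb1 and 33 in H2-Oa. The window of H2-Ob also held the pair, 30 bases apart. Of all 32851 windows, 3.41% held GNAAC followed by ATTGG at a distance of 25 to 45 bases on either strand. The windows of H2-DMa and Ctss did not. That of Ctss held GAAA, 2 bases of any kind and GAAA again, the pattern of the interferon-stimulated response element, as did 3.44% of all windows on either strand. It stands in capitals in the next line.
Ctss (chr3:95526740-95526785, plus strand): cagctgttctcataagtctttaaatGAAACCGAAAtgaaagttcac

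All values are log2 signals that the authors computed with the Robust Multichip Average (RMA), and they run to 14.40 at the top of the table. The arrays had medians of 7.94 to 7.99. The mean log2 signal of 14 B cell markers was 11.06 to 11.36 over the arrays and that of 14 T cell markers 10.65 to 10.91, so that the lymphocytes that make up LN were present in each. The arrays stood apart in salivary and lacrimal gland RNA: the mean of 10 gland markers was 5.23 for WT CFA+PTX and 9.06 for WT untreated replicate 1, against 11.89 to 12.75 in the other 6. Medians over the genes are therefore also given without each of these arrays where leaving it out changes a comparison. Hrh3 itself read 7.20 to 7.29 in the 4 H3RKO arrays and 6.56 to 6.66 in the 4 WT arrays, and the position of its probe set relative to the deletion is not given in the sources used here, so it does not check the labels.

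Over the 8 arrays the class II genes varied little on the probe sets that stand for them. Their SD ran between 0.037 and 0.11 on the log2 scale, against a median SD of 0.11 over all probe sets, and the widest span, that of Ciita, was 0.32 or 1.25-fold. The SD of H2-Aa was above that of 2.05% of all probe sets and the SD of Ciita above that of 47.3%, which were the ends of the list. Signals of H2-Aa, H2-Ab1, H2-Eb1 and Cd74 averaged above 13.40, within 1 log2 unit of the top of the range. On such bright probe sets the signal may rise less than the RNA. H2-DMa, H2-Oa, Ciita and Ctss lay below that limit. Dimmer probe sets of the same genes varied more. The SD was 0.14 on the other one of Ciita, above that of 68.1% of all probe sets, with a span of 0.42. It was 0.11 on both dimmer ones of H2-Ab1 and 0.068 on that of H2-Aa.

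Among the alpha and beta chains of I-A and I-E, H2-Aa, the alpha chain of I-A, had a log2 signal of 13.90 in the H3RKO CFA+PTX array, 13.86 in WT CFA+PTX, 13.88 in H3RKO CFA, 13.92 in WT CFA, 13.89 and 13.93 in H3RKO untreated, and 13.98 and 13.91 in WT untreated. H2-Ab1, its beta chain, read 13.54 in H3RKO CFA+PTX, 13.41 in WT CFA+PTX, 13.56 in H3RKO CFA, 13.57 in WT CFA, 13.52 and 13.56 in H3RKO untreated, and 13.56 and 13.62 in WT untreated. For both chains of I-A the WT CFA+PTX array was the lowest of the 8 and an untreated WT array the highest. H2-Eb1, the beta chain of I-E, read 13.53 in H3RKO CFA+PTX, 13.46 in WT CFA+PTX, 13.52 in H3RKO CFA, 13.55 in WT CFA, 13.46 and 13.56 in H3RKO untreated, and 13.60 and 13.57 in WT untreated. Its lowest reading was H3RKO untreated replicate 1, and the treated arrays fell inside the span of the untreated ones, apart from WT CFA+PTX, which equalled its lower end to 2 decimals.

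Cd74, the invariant chain, was at 14.16 in H3RKO CFA+PTX, 14.14 in WT CFA+PTX, 14.15 in H3RKO CFA, 14.26 in WT CFA, 14.16 and 14.14 in H3RKO untreated, and 14.15 and 14.18 in WT untreated. The WT CFA array was the highest and the other 7 lay between 14.14 and 14.18, all close to the top of the range. Ctss, which encodes cathepsin S, the protease that makes the last cut in the invariant chain, was at 13.13 in H3RKO CFA+PTX, 13.18 in WT CFA+PTX, 13.07 in H3RKO CFA, 13.15 in WT CFA, 13.01 and 13.10 in H3RKO untreated, and 12.93 and 13.10 in WT untreated. Both CFA+PTX arrays stood above the 4 untreated ones for Ctss.

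Of the editors of the peptide cargo, H2-DMa, the alpha chain of H2-DM, read 11.72 in H3RKO CFA+PTX, 11.66 in WT CFA+PTX, 11.84 in H3RKO CFA, 11.87 in WT CFA, 11.76 and 11.72 in H3RKO untreated, and 11.87 and 11.78 in WT untreated. H2-Oa, the alpha chain of the restraining H2-O, read 11.41 in H3RKO CFA+PTX, 11.35 in WT CFA+PTX, 11.49 in H3RKO CFA, 11.58 in WT CFA, 11.38 and 11.31 in H3RKO untreated, and 11.53 and 11.43 in WT untreated. In each genotype both of these genes were lower after CFA+PTX than after CFA. Ciita, the coactivator, read 9.55 in H3RKO CFA+PTX, 9.46 in WT CFA+PTX, 9.42 in H3RKO CFA, 9.74 in WT CFA, 9.50 and 9.57 in H3RKO untreated, and 9.62 and 9.66 in WT untreated. The 2 CFA arrays were the extremes for Ciita, WT CFA being the highest of the 8 and H3RKO CFA the lowest.

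**Figure D1:**
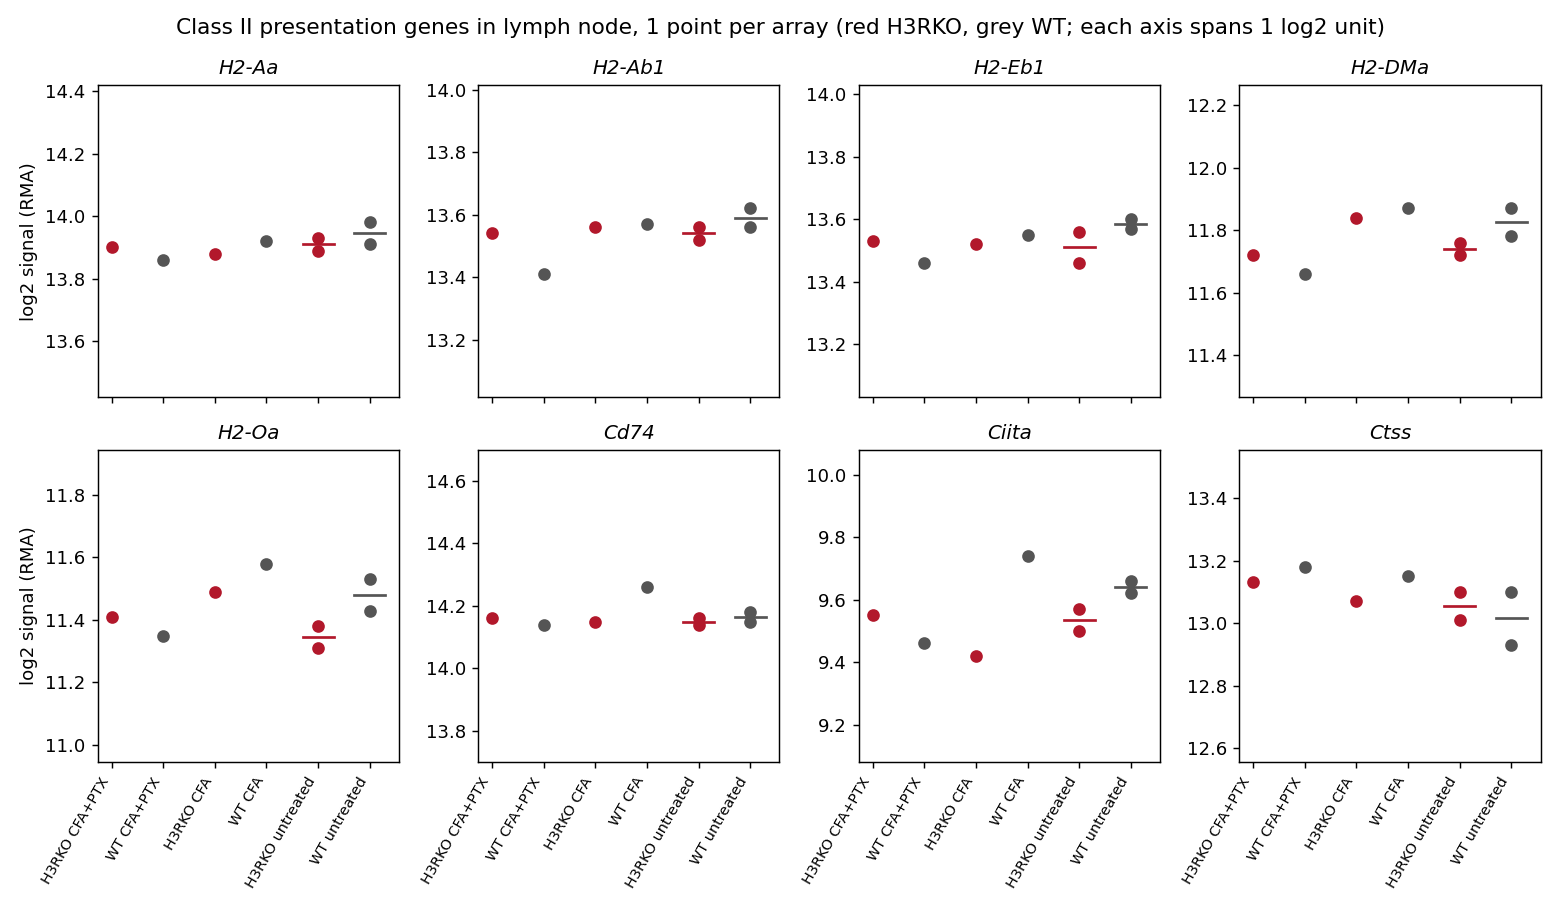
Log2 signal (RMA) of 8 class II presentation genes in each array, H3RKO in red and WT in grey, with a line at the mean where a group has 2 arrays; each vertical axis spans 1 log2 unit, which is 2-fold. The widest span is that of Ciita (9.42 to 9.74) and the narrowest that of Cd74 (14.14 to 14.26).

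What the adjuvant did to these genes was asked over both genotypes, in a linear model of genotype and treatment. After CFA none of the 8 genes passed at an adjusted p under 0.05 (limma, Benjamini-Hochberg over all probe sets), where 0% of the 22626 probe sets passed as well, and none had an unadjusted p under 0.05, against 6.25% of all probe sets. The differences ran from -0.03 ± 0.06 (H2-Aa) to 0.12 ± 0.07 (H2-Oa; log2 ± SE, 2 CFA and 4 untreated arrays). The median over the 8 genes was 0.02, beside 0.01 over all probe sets, with 5 of 8 above 0, and it was 0.02 without WT untreated replicate 1, 0.09 without the H3RKO CFA array and -0.01 without the WT CFA array. The 95% intervals reached from -0.21 to 0.30 at their outermost, so that each of them excluded a change of more than 1.23-fold.

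After CFA+PTX none of the 8 passed either, again beside 0% of all probe sets, and none had an unadjusted p under 0.05 where 12.3% of all probe sets did. Ctss had the highest difference (0.12 ± 0.08, adjusted p = 0.572, limma) and H2-DMa the lowest (-0.09 ± 0.07, adjusted p = 0.616; 2 CFA+PTX and 4 untreated arrays). Ctss was the only 1 of the 8 whose CFA+PTX and untreated arrays did not overlap, beside 21.8% of all probe sets. Without WT untreated replicate 1 the difference of Ctss was 0.07. That of H2-DMa was -0.03 without the WT CFA+PTX array and -0.16 without the H3RKO CFA+PTX array. The median was -0.05. It was 0.02 without the WT CFA+PTX array and -0.03 without WT untreated replicate 1, the arrays that stood apart in gland RNA, and -0.12 without the H3RKO CFA+PTX array. At their outermost the 95% intervals reached -0.29 and 0.30.

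Adding PTX to CFA was compared with CFA alone in 2 arrays each. H2-DMa differed by -0.17 ± 0.08 (adjusted p = 0.897, limma) and Ctss by 0.04 ± 0.09 (adjusted p = 0.974), which were the lowest and the highest of the 8 differences. None passed, beside 0% of all probe sets. None had an unadjusted p under 0.05, against 5.47% of all probe sets. For H2-DMa 3 alternatives went past that limit, with adjusted p = 0.901 for a linear model without moderation, 0.802 for a robust fit with a variance trend and 0.835 with arrays centred on their medians. Over all its alternatives its adjusted p ran from 0.752 to 1.0, and its difference was -0.10 without the WT CFA+PTX array (adjusted p = 1.0). H2-Ab1, H2-DMa and H2-Oa had both CFA+PTX arrays below both CFA arrays, 3 of 8 genes where 38.0% of all probe sets did not overlap. The median was -0.06 with all arrays, 0.00 without the WT CFA+PTX array and -0.14 without the H3RKO CFA+PTX array. The intervals allowed differences of up to 1.28-fold.

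The question of whether the receptor alters these genes was put first to untreated LN. None of the 8 met the criterion of the methods (an unadjusted p under 0.05 with a fold change over 2), which 0.15% of all probe sets met, and none had an unadjusted p under 0.05, against 5.43% of all probe sets. H2-Oa differed most, by -0.13 ± 0.09 (H3RKO minus WT, adjusted p = 0.939, limma), and Ctss was the only 1 above 0 (0.04 ± 0.10, adjusted p = 0.993; 2 arrays each). In 5 of the 8 (H2-Ab1, H2-Eb1, H2-DMa, H2-Oa and Ciita) both H3RKO arrays lay below both WT arrays, where 33.4% of all probe sets did not overlap in either direction. The difference of Ctss was -0.05 without WT untreated replicate 1 and -0.004 without H3RKO untreated replicate 2. That of H2-Oa was -0.08 without WT untreated replicate 1. The median of the 8 was -0.07, and it was -0.05 without WT untreated replicate 1 and -0.03 without H3RKO untreated replicate 1, with intervals that left room for at most 1.29-fold.

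After CFA the exception was Ciita. It differed by -0.32 ± 0.12 between the H3RKO CFA and the WT CFA array, which is 0.802-fold (unadjusted p = 0.0407, adjusted p = 1.0, limma, 1 array per genotype). An unadjusted p under 0.05 was found for 3.38% of all probe sets in this comparison. The other probe set of Ciita read 8.90 in both CFA arrays, and the mean of the 2 probe sets differed by -0.16 (unadjusted p = 0.236, adjusted p = 0.999, limma). For the brightest probe set the unadjusted p was 0.0849 without either of the H3RKO untreated arrays (adjusted p = 1.0, limma). None of the 8 genes met the criterion of the methods, which 0.225% of all probe sets met. The other 7 differences were all below 0 and the nearest to it was that of H2-Ab1 (-0.01 ± 0.12). The median was -0.06, and the interval of Ciita reached from -0.62 to -0.02.

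After CFA+PTX the signs turned. Of the 8 differences between the H3RKO and the WT array 7 were above 0, from H2-Ab1 (0.13 ± 0.12) down to Ctss at -0.04 ± 0.14, with a median of 0.06 and adjusted p = 1.0 for each (limma, 1 array per genotype). None met the criterion of the methods, beside 0.362% of all probe sets, or had an unadjusted p under 0.05, against 3.24% of all probe sets. This comparison rests on the WT CFA+PTX array and has no value without it. An interaction term then asked how far the genotype difference after CFA+PTX departed from the one in untreated LN. It ran from -0.08 ± 0.17 (Ctss) to 0.20 ± 0.16 (H2-Oa), with a median of 0.14 (0.11 without WT untreated replicate 1), and none of the 8 met the criterion that 0.265% of all probe sets met or had an unadjusted p under 0.05 (2.85% of all probe sets). For CFA the interaction ran from -0.21 ± 0.15 (Ciita) to 0.05 ± 0.15 (H2-DMa), with a median of 0.02 that was -0.02 without WT untreated replicate 1 and -0.01 without H3RKO untreated replicate 1, and none met the criterion, beside 0.667% of all probe sets, or had an unadjusted p under 0.05 (5.72% of all probe sets). The turned signs are thus a description.

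Over all treatments, with 4 H3RKO and 4 WT arrays, the differences ran from -0.11 ± 0.07 (Ciita) to 0.00 ± 0.06 (H2-Ab1), with adjusted p = 0.999 for all 8 (limma) and none called, beside 0% of all probe sets. None had an unadjusted p under 0.05, against 3.64% of all probe sets. The arrays of the genotypes overlapped for all 8 genes, where they did not for 1.68% of all probe sets. The difference of Ciita was -0.04 without either CFA array and -0.18 without either CFA+PTX array. The median was -0.03, and it was -0.02 without WT untreated replicate 1 and -0.05 without the WT CFA+PTX array or without the H3RKO CFA+PTX array. With this number of arrays the intervals excluded differences over 1.21-fold. In all 9 comparisons the intervals of all 8 genes excluded a 2-fold difference in signal on the probe sets that stand for them. For H2-Aa, H2-Ab1, H2-Eb1 and Cd74, near the top of the range, the RNA may differ by more than the signal. The intervals rest on 2 or 4 residual degrees of freedom and on variances moderated over all probe sets. Fits with a mean per group take each lone treated array to vary like the untreated pairs. In the model of genotype and treatment any interaction between them also enters the spread.

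**Figure D2:**
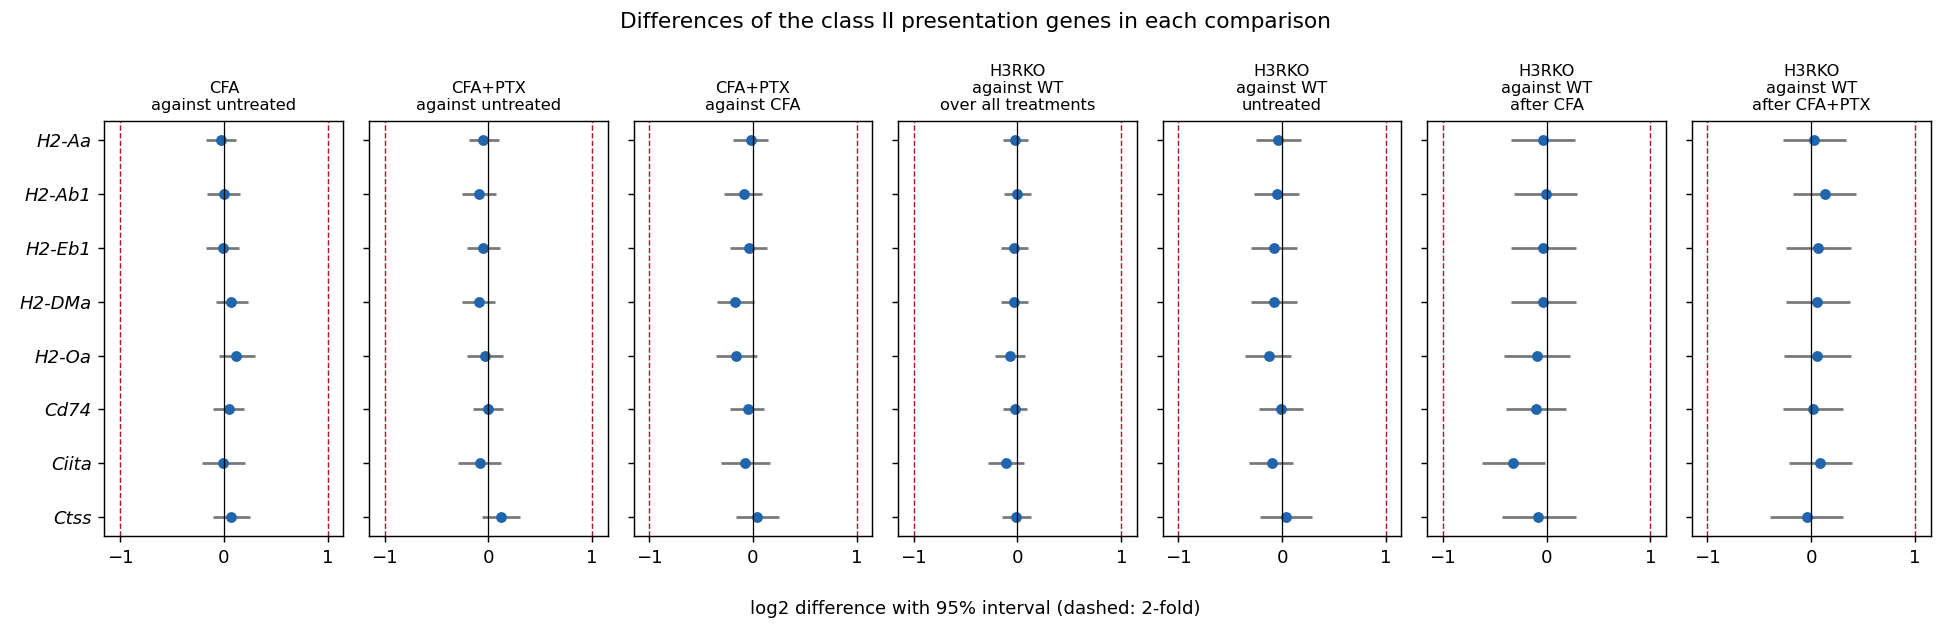
Log2 differences of the 8 class II genes (points) with 95% intervals from limma (lines) in 7 comparisons, the group named first minus the other; dashed lines mark 2-fold. The interval that comes nearest to a dashed line is that of Ciita after CFA, at -0.62, and all others straddle 0.

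The genes varied from array to array partly together. When each gene was centred on its own mean, all 8 lay above it in the WT CFA array (mean 0.08) and 7 of 8 below it in each CFA+PTX array (mean -0.01 for H3RKO and -0.06 for WT). All 8 also lay below it in H3RKO untreated replicate 1 (mean -0.04). Over the 8 arrays Pearson's r was above 0 for all 21 pairs of genes without Ctss, with a median of 0.55. It ran from 0.01 (H2-Aa with Cd74) to 0.90 (H2-DMa with H2-Oa). Cd74 also had r = 0.13 with H2-Eb1 and 0.34 with H2-Ab1, but 0.73 with Ciita. These correlations describe 8 arrays that share their processing, and the deviations are small. Ctss went another way, with r above 0 for 2 of its 7 pairs and the lowest with H2-Aa (-0.65).

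Cell type markers moved beside them. The mean log2 signal of 14 B cell markers was 11.20 in H3RKO CFA+PTX, 11.06 in WT CFA+PTX, 11.28 in H3RKO CFA, 11.36 in WT CFA, 11.22 and 11.22 in H3RKO untreated, and 11.22 and 11.29 in WT untreated. Like the class II genes it was thus highest in WT CFA and lowest in WT CFA+PTX. Of these markers 13 of 14 were lower after CFA+PTX than after CFA, 6 at an unadjusted p under 0.05, beside 5.47% of all probe sets, and none at an adjusted p under 0.05 (limma). The 14 macrophage and monocyte markers averaged 10.52 in H3RKO CFA+PTX, 10.73 in WT CFA+PTX, 10.36 in H3RKO CFA, 10.52 in WT CFA, 10.39 and 10.43 in H3RKO untreated, and 10.48 and 10.31 in WT untreated. They were highest in WT CFA+PTX, as was Ctss. Between the untreated WT arrays the markers and Ctss went opposite ways. Ctss read 12.93 in replicate 1 and 13.10 in replicate 2, where the markers averaged 10.48 and 10.31. The 13 markers of conventional dendritic cells had means between 9.70 and 9.88, in which single markers went opposite ways. After CFA+PTX 3 were higher and 2 lower than untreated at an unadjusted p under 0.05 (limma), beside 12.3% of all probe sets. Over all treatments 10 of 13 were lower in H3RKO than in WT, 4 at an unadjusted p under 0.05 (limma), beside 3.64% of all probe sets. None passed at an adjusted p under 0.05. The part of these cell types in the class II signals was not tested.

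**Figure D3:**
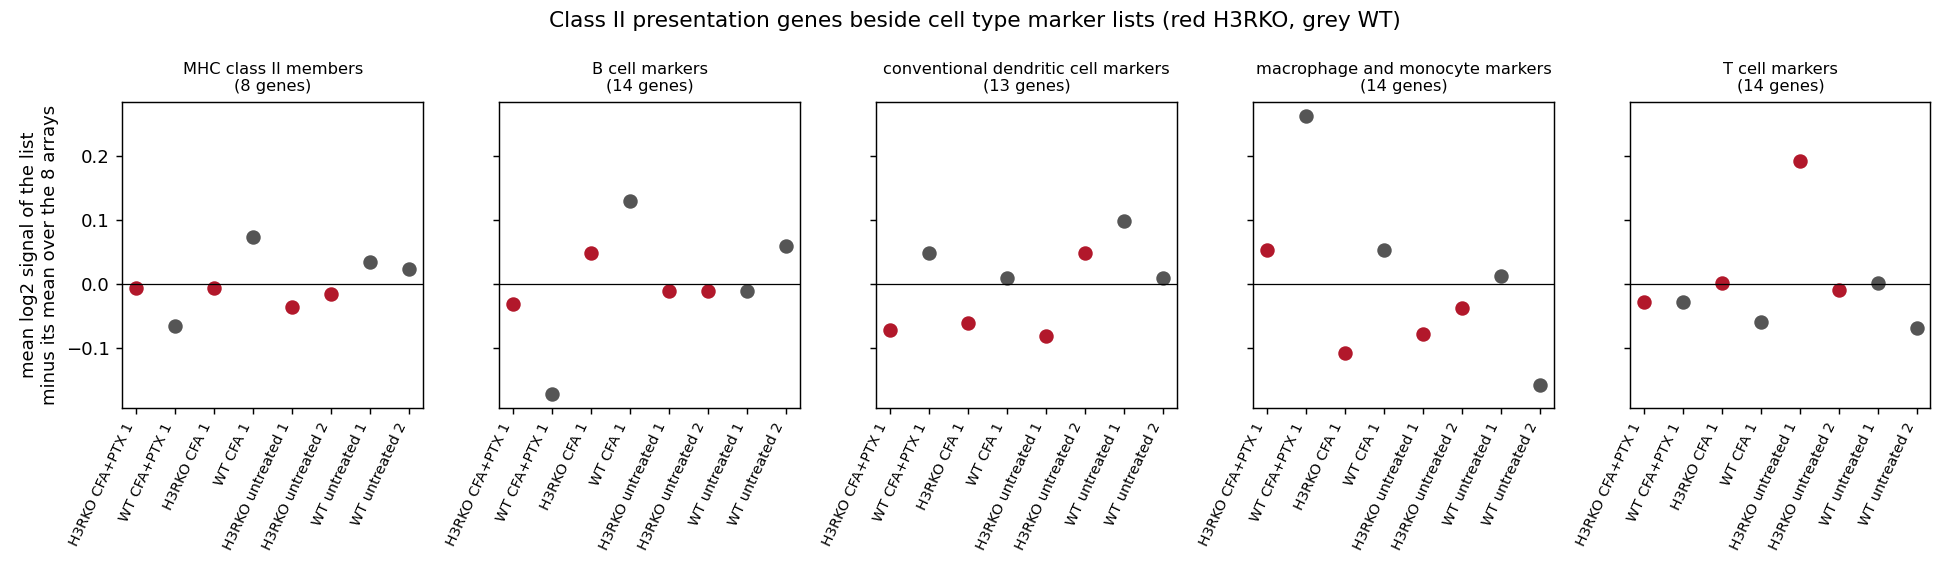
Mean log2 signal of the class II genes and of 4 marker lists in each array, minus the mean of that list over the 8 arrays, H3RKO in red and WT in grey. In WT CFA+PTX the class II genes (12.56) and the B cell markers (11.06) are at their lowest and the macrophage and monocyte markers (10.73) at their highest.

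By the rule of likeness, the genes outside the lists whose signal followed the mean of the class II genes most closely over the 8 arrays were Lmo2 (r = 0.94), Nptx2 (0.91), Olfr480 (0.90), Cxcl2 (0.87), Vapb (0.87) and Srpk3 (0.87), out of 6480 genes with an SD of at least 0.1. Lmo2 encodes a LIM domain adaptor of transcription factor complexes and ran between 11.32 and 11.68. Nptx2, Olfr480 and Cxcl2 had signals under 5, where little RNA is measured. All 6 were highest in WT CFA, and 5 of them were lowest in WT CFA+PTX. The class II mean that they were picked to follow has the same extremes, so this comes with the choice.

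Several members have other probe sets. H2-Ab1 has 2 dimmer ones, on both of which the 2 CFA+PTX arrays were the lowest of the 8, with WT CFA+PTX lower. Between CFA+PTX and untreated arrays, 21.8% of all probe sets did not overlap, in either direction. The brighter of the 2 dimmer probe sets read 12.85 in H3RKO CFA+PTX and 12.71 in WT CFA+PTX, against 12.91 and 12.91 in H3RKO untreated and 13.06 and 13.01 in WT untreated. That probe set put H2-Ab1 after CFA+PTX at a difference of -0.19 from untreated (adjusted p = 0.375, limma), and the mean of its 3 probe sets at -0.17 (adjusted p = 0.337), against -0.09 ± 0.07 on the brightest one. Both of these fits had an unadjusted p under 0.05, as did 12.3% of all probe sets in the main fit. The dimmer probe set of H2-Aa ran from 12.83 in WT CFA+PTX to 13.04 and had the same lowest array as the brightest.

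The pathway around these genes was searched through lists of further chains, promoter factors, endosomal proteases and their partners, turnover genes and regulators of Ciita. Of the 2 further chains, 7 promoter factors, 10 endosomal genes, 1 turnover gene, 9 genes of interferon gamma signalling and 6 other regulators measured, none was called in any of the 9 comparisons. Of all probe sets, 0% were called in the comparisons judged by adjusted p and 0.15% to 0.667% in the others. With so few calls anywhere, this does not set the pathway apart. The largest difference above 0 after injection was that of an endosomal gene. Lgmn encodes legumain, an asparagine-specific protease that starts the cutting of antigens and of the invariant chain. It read 11.87 in H3RKO CFA+PTX, 11.98 in WT CFA+PTX, 11.88 in H3RKO CFA and 11.97 in WT CFA, against 11.55 and 11.69 in H3RKO untreated and 11.45 and 11.56 in WT untreated. All 4 injected arrays were thus above all 4 untreated ones. Of all probe sets, 14.5% did not overlap between CFA and untreated arrays and 21.8% between CFA+PTX and untreated arrays, in either direction. The share for all injected arrays together, a stricter separation, was not computed. Lgmn was picked for the size of its difference. Its difference was 0.36 ± 0.09 after CFA+PTX (adjusted p = 0.224, limma) and 0.36 ± 0.09 after CFA (adjusted p = 0.575).

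Of the 10 endosomal genes 9 had a difference above 0 after CFA+PTX and 3 an unadjusted p under 0.05, beside 12.3% of all probe sets. Besides Lgmn these were Ctsl, which encodes cathepsin L (0.19 ± 0.07, adjusted p = 0.369, limma), and Ctsb, which encodes cathepsin B (0.16 ± 0.06, adjusted p = 0.387). Over all treatments Ctsl differed by -0.16 ± 0.06 between H3RKO and WT (adjusted p = 0.999). It read 12.85 in WT CFA+PTX, the array with the highest macrophage and monocyte markers, and 12.40 to 12.67 in the other 7. Ifi30, a reductase that opens disulphide bonds of antigens, differed by 0.16 ± 0.07 after CFA (adjusted p = 0.797).

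Cd83, a surface protein that shields class II molecules from ubiquitination and turnover, had negative differences in both injected groups that did not pass. It read 11.36 in H3RKO CFA+PTX, 11.21 in WT CFA+PTX, 11.34 in H3RKO CFA and 11.42 in WT CFA, against 11.54 and 11.61 in H3RKO untreated and 11.65 and 11.84 in WT untreated. The injected arrays did not overlap with the untreated ones. Taken separately against untreated, 14.5% of all probe sets did not overlap for CFA and 21.8% for CFA+PTX. For all injected arrays together the share was not computed. Cd83 differed by -0.37 ± 0.09 after CFA+PTX (adjusted p = 0.236, limma) and by -0.28 ± 0.09 after CFA (adjusted p = 0.755). It is also a gene of activated B cells and dendritic cells.

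Among the regulators of Ciita, Irf4 differed by -0.22 ± 0.07 and Bcl6 by -0.30 ± 0.10 after CFA+PTX (adjusted p = 0.317 for each, limma), transcription factors that act in plasma cell and germinal centre differentiation. Ifng, the main inducer of Ciita outside the professional presenting cells, had log2 signals of 4.68 to 5.48 over the arrays and differed by -0.23 ± 0.19 after CFA+PTX (adjusted p = 0.683). Its interval reached from -0.68 to 0.22. Ifngr2, a chain of its receptor, differed by -0.21 ± 0.08 after CFA+PTX (adjusted p = 0.386) and -0.20 ± 0.08 after CFA (adjusted p = 0.797). Of the 7 promoter factors Creb1 differed most, by -0.24 ± 0.10 after CFA+PTX (adjusted p = 0.387).

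Of the further chains, H2-DMb2, a beta chain of H2-DM, read 11.18 in WT CFA+PTX and 11.38 to 11.66 in the other 7 arrays. The H3RKO CFA+PTX array, at 11.55, was thus higher by 0.37 ± 0.12 than the WT CFA+PTX array (log2 ± SE, 1 array per genotype, not called). This difference rests on the WT CFA+PTX array, which stood apart in gland RNA. Both other probe sets that measure H2-DM beta chains are annotated to H2-DMb1 and H2-DMb2 at once and were not used. H2-Ea, silent in this haplotype, has 3 probe sets. On 2 of them it lay between 3.33 and 4.18, near the floor of the table at 2.42, whereas the brightest read 7.95 to 8.17 over the arrays and was called in none of the 9 comparisons.

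**Figure D4:**
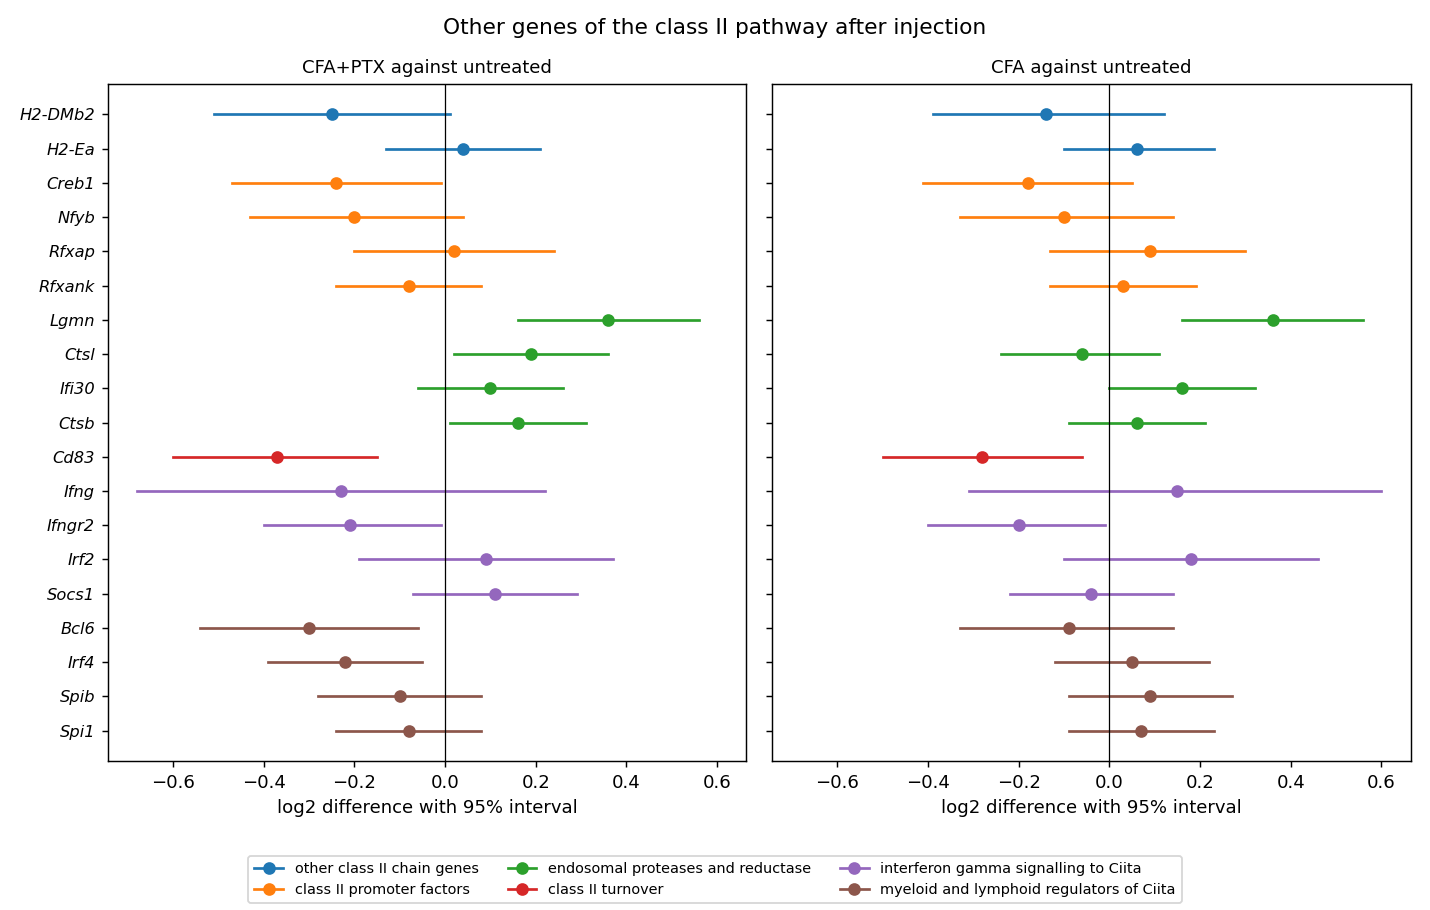
Log2 differences (points) with 95% intervals (lines, limma) of the up to 4 genes per list with the largest differences, for CFA+PTX and for CFA against untreated LN, coloured by list. Lgmn lies at 0.36 in both panels and Cd83 at -0.37 and -0.28, and none of the differences was called.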

How the data were processed

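RNA pools of LN were hybridized to single-colour Affymetrix Mouse Genome arrays (8 arrays, 1 per pool). Deposited values are log2 signals, 1 per probe set, which the authors made by RMA (background correction, normalization between arrays and a summary of the probes). They run from 2.42 to 14.40. No genome build is given in the sources used here, and coordinates are those of the RefSeq table. After 64 control probe sets were set aside, 22626 were tested. In the annotation 20380 probe sets name 1 gene, 691 name several and 1555 are unnamed. Symbols were updated through gene IDs, 20351 of which matched.

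Linear models were fitted across all probe sets in limma 3.58.1 (R 4.3.3): genotype and treatment as additive terms (4 residual degrees of freedom) and a mean per group (2 residual degrees of freedom). P-values were adjusted by Benjamini-Hochberg. Genotype differences within a treatment and interactions used the criterion of the methods, the others an adjusted p under 0.05. Nothing says that replicate pools were made from separate cages or days, so p-values speak only for the spread between these pools. That spread is moderated over all probe sets, and in the additive model it also holds any interaction of genotype and treatment. The number of arrays limits the precision. Named genes are the members, up to 4 genes per pathway list with the largest differences, and the 6 genes most like the members. The members and lists were chosen with earlier results of these data known. The models were tested on simulated data. Alternatives were quantile normalization again, median centring, no moderation of the variances, a robust fit with a variance trend, a filter on dim probe sets (mean under 6), leaving out x_at and s_at probe sets, which may cross-hybridise, the mean of a gene's probe sets, the other threshold, only the arrays compared, a replicate block and each array left out. Plots were drawn with matplotlib 3.10.9.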

Additional observations from a re-analysis of the deposited data

How the results depend on the processing

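None of the 8 class II genes was called in any of the 9 comparisons under any of the 18 alternatives, and the lowest adjusted p among them was 0.337. Of 1175 differences of a gene under an alternative, 1123 kept their direction and 52 did not, from starting values of at most 0.086. Many of the 1175 could not change. A fit without moderation, the robust fit and the other threshold leave every difference as it was. Between group means, so does leaving out an array of another group. The count of those that kept their direction is therefore no measure of robustness. Single genes are given here for the highest, the lowest and any with an unadjusted p under 0.05 in a comparison, a choice made after the changes of direction had been counted. For H2-Ab1 over all treatments (0.004) these were -0.004 with quantile normalization again, -0.029 without x_at and s_at probe sets, -0.009 for the mean of its probe sets and -0.038 to 0.028 with an array left out. H2-Ab1 after CFA (-0.008) became 0.000 with quantile normalization again. With an array left out, Ctss ran from -0.047 to 0.127 in untreated LN and from -0.172 to 0.003 for the interaction with CFA+PTX. The median of the genes ran from -0.005 to 0.085 for CFA against untreated, the lowest without the WT CFA array and the highest without the H3RKO CFA array. It ran from -0.12 to 0.019 for CFA+PTX against untreated and from -0.14 to 0.002 for CFA+PTX against CFA, in both the lowest without the H3RKO CFA+PTX array and the highest without the WT CFA+PTX array. Its value for the interaction with CFA+PTX was 0.193 with arrays centred on their medians, against 0.144. The cause was not tested. The replicate number of the untreated arrays is only a number, with r = 0.123 between the deviations of the replicate 1 arrays. With the replicate block Ciita after CFA had an unadjusted p of 0.0747 (adjusted p = 1.0, limma), against 0.0407 without it, no gene was called in the 6 comparisons of genotype, and the medians were -0.065 in untreated LN, -0.027 over all treatments, -0.056 after CFA, 0.064 after CFA+PTX, and 0.022 and 0.144 for the interactions with CFA and CFA+PTX. The block takes in 1 untreated array of each genotype, so it cannot move the genotype differences, and these medians equal those without it. For H3RKO against WT after CFA or CFA+PTX a fit of only the arrays compared was not run, since no residual degrees of freedom remain, and without x_at and s_at probe sets H2-Aa has no value. Signals near the top of the range limit what can be seen of H2-Aa, H2-Ab1, H2-Eb1 and Cd74.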

Other observations

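The probe set annotated to both H2-Ob, the beta chain of H2-O, and the predicted gene Gm20506 could not be assigned to either. Its log2 signal was 11.21 in H3RKO CFA+PTX, 11.16 in WT CFA+PTX, 11.24 in H3RKO CFA, 11.30 in WT CFA, 11.32 and 11.14 in H3RKO untreated, and 11.31 and 11.16 in WT untreated. The injected arrays all lay within the span of the untreated ones.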
